A study of Mus musculus with 8 samples.

Results

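Microglia of the lumbar spinal cord were compared between day 3 and day 2 after peripheral nerve injury in control mice. The comparison set 1 single-cell RNA-seq library against another, with barcodes kept at 1000 or more UMIs (unique molecular identifiers, 1 per captured RNA molecule), 500 or more detected genes and at most 10% of UMIs from mitochondrial genes. Of 2171 barcodes on day 3, 2117 were kept, and all 3585 on day 2, so the pair held 5702 of the 14626 cells kept across the 8 libraries of the series. The UMIs of the kept cells were summed per library and expressed as CPM (counts per 1000000 UMIs), and each gene was described by the log2 ratio of day 3 over day 2.

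Control mice, labelled YFP, were Cx3cr1-yfp-creER/+ on the C57BL/6 strain, and A20 cKO mice were Cx3cr1-yfp-creER/+; Tnfaip3 fl/fl. The latter genotype is designed to delete Tnfaip3, the gene of the ubiquitin-editing enzyme A20 that limits NF-kB signalling, in cells that express the fractalkine receptor Cx3cr1. Its UMIs showed no loss, at 47.4, 42.3, 52.4 and 67.7 CPM in the libraries labelled A20 cKO naive, day 1, day 2 and day 3, above all 4 control libraries at 6.83 to 25.2 CPM. The kit counts the 3′ ends of RNAs, and the place of the floxed part is not given in the sources used here, so these counts check neither the deletion nor the labels. The Cre driver is not particular to microglia, since other Cx3cr1-expressing myeloid cells carry it too. All groups, controls included, received tamoxifen on 5 consecutive days, and the study's methods place experiments 7 days after the first dose, in young adult animals. Mice were naive or were taken 1, 2 or 3 days after a nerve injury that the labels give as bilateral sciatic nerve transection and the methods as transection with ligation. Each library pooled 3 animals and the cells were sorted for YFP, so there was 1 library per group and animals could not be separated. The methods give roughly equal numbers of males and females, whereas Xist, the X-inactivation RNA of female cells, had 1 UMI in each library of the pair.

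With 1 library on each side, no difference had a replicate check. No test was made, no p-value is given, and every interval printed is a 95% interval that covers counting error only. A gene was considered if it had at least 100 UMIs over both sums together, and is called higher or lower if its CPM differed at least 2-fold. The day 3 library held 7286748 UMIs in kept cells with a median of 3191 per cell. The day 2 library held 15817426 with a median of 3911. The median share of mitochondrial UMIs was 1.51% on day 3 and 1.52% on day 2. One UMI was worth 0.137 CPM on day 3 and 0.0632 CPM on day 2, and the level that 3 UMIs stand for was 0.412 and 0.190 CPM.

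The 2 libraries differed in more than the day. Control day 3 shared cell barcodes with the 4 A20 cKO libraries at a rate of 9.68 in every 1000000 possible barcode pairs (109 shared, range over the 4 pairings 5.41 to 18.3). It shared barcodes with the other control libraries at a rate of 1.47, and control day 2 shared them with the A20 cKO libraries at a rate of 1.72. In total 54 kept day 3 barcodes and 60 kept day 2 barcodes also occurred in another library. Among all deposited barcodes, 11 occurred in both libraries of the pair. The rates likewise count every deposited barcode and are not given for kept barcodes alone. Control naive shared 14 barcodes with the A20 cKO libraries, a rate of 4.43 (2.20 to 8.83 over the 4 pairings, from 2 to 5 barcodes each), so its side is unclear. Control day 3 thus stood with the 4 A20 cKO libraries, and control day 1 and day 2 on the other side of a split, which may mark a difference in how libraries were prepared or sequenced. Day 3 against day 2 crossed that split, so time after injury and library side cannot be told apart in any ratio given here. A20 cKO day 3 against day 2 compared the same days within 1 side, though that side was not uniform. Its A20 cKO libraries shared barcodes with each other at rates from 9.11 (naive and day 2) to 67.6 (day 1 and day 2). For day 2 and day 3 the rate was 39.5. A20 cKO against control on day 1 crossed the split, and the same in naive mice may or may not have. Both differed in genotype and shared no library with the pair. The values of these 3 pairs are given beside those of the control pair.

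Microglia, the macrophages native to brain and spinal cord, renew by division within the tissue. After a peripheral nerve is cut, microglia around the damaged motor and sensory neurons in the cord enter the cell cycle and change their expression of receptors and secreted factors. Type I interferon acts on such cells through a complex of transcription factors that binds a promoter element with a repeated GAAA core and switches on interferon-stimulated genes, most of them antiviral.

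Interferon-stimulated genes had the largest median ratio of the 29 pathway lists. Promoters of 4 of them, all with a match to GAAANNGAAA in the window shown, are given first. Each is the 150 bases just before a RefSeq transcription start (GRCm38.p6), written 5′ to 3′ on the gene's strand, with capitals marking matches to GAAANNGAAA on either strand. Rsad2 encodes viperin, Ifit3 and Ifit1 encode RNA-binding antiviral proteins, and Isg15 encodes a ubiquitin-like modifier. The windows lie at chr12:26456453-26456602 on the minus strand for Rsad2, chr19:34583379-34583528 on the plus strand for Ifit3, chr19:34640739-34640888 on the plus strand for Ifit1 and chr4:156200819-156200968 on the minus strand for Isg15.
Rsad2: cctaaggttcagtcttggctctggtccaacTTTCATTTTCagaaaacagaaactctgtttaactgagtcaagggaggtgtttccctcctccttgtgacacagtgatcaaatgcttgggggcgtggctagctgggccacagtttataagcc
Ifit3: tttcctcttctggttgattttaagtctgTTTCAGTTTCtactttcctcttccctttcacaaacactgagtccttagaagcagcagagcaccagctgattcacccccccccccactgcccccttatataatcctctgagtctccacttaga
Ifit1: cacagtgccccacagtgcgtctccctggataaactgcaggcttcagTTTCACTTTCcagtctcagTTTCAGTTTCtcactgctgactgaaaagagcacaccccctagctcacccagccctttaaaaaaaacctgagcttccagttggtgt
Isg15: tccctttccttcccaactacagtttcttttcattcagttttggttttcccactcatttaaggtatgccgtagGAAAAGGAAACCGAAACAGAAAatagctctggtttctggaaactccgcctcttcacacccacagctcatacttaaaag

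The motif occurred once in the Rsad2 and Ifit3 windows, in 2 separate places in the Ifit1 window and as 3 overlapping matches in the Isg15 window. Only windows that hold the motif are shown, so these 4 cannot tell how common it is. In windows from 250 bases before to 50 after the start, the motif was found for 28 of the 46 interferon-stimulated genes with a promoter in the table (60.9%). Over all genes with a promoter the share was 3.99% (1079 of 27025), and over the genes considered here it was 3.88%. DNA replication genes held it in 1 of 43 (2.33%), and all genes at least 2-fold higher on day 3 in 74 of 964 (7.68%). Ifit2, Oasl2 and Samd9l, all of larger ratio than Isg15, held 0 matches in these wider windows. The match of Slfn5 lay at -155 from the start, outside the last 150 bases. A match describes letters in a window and is not a measured binding site.

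Interferon-stimulated genes were higher on day 3 throughout. All 57 of the 62 list members with enough UMIs had a ratio above 0, 51 of them were at least 2-fold higher and none was lower, with a median log2 ratio of 2.45 and a range from 0.36 to 7.54. Over all 9887 genes considered, 13.1% were at least 2-fold higher (1298) and 2.69% at least 2-fold lower (266), and the median gene lay at a log2 ratio of 0.146, so that a ratio between 0 and that value is below the median gene. The summed level of the list was 2653, 1894 and 2502 CPM in control naive, day 1 and day 2, and 9573 CPM in control day 3. Across naive, day 1, day 2 and day 3 of A20 cKO it was 9138, 10399, 15664 and 16513 CPM. In all 57 members the day 3 level exceeded all 3 other control libraries, against 37.5% of all genes considered. Day 2 is among those 3, and the ratios above already placed all 57 members over it. In 56 of the 57, every A20 cKO library also exceeded those 3 controls, against 21.3% of all genes considered. Control day 3 was therefore the control library nearest the A20 cKO libraries on this list. Its level lay within the range of the A20 cKO libraries in 37 of the 57 (64.9%), near the 63.7% of all genes considered.

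**Figure D1:**
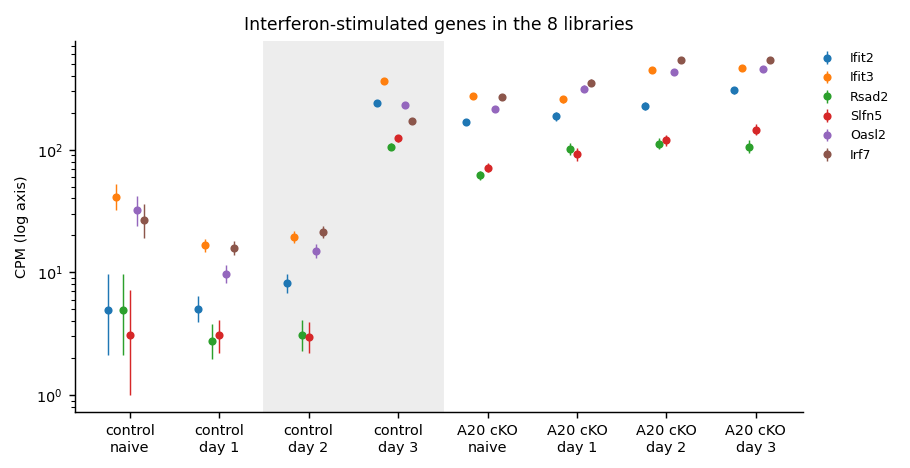
Levels in CPM (log axis) of 6 interferon-stimulated genes in each of the 8 libraries, 1 library per group, with vertical lines for 95% counting intervals and shading over the pair compared. Control day 3 sits with the A20 cKO libraries, as for Ifit2 at 242 CPM against 8.16 on control day 2 and 169 to 305 in A20 cKO.

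Antiviral effectors had the largest ratios. Ifit2 (chr19:34550694-34576419, plus strand), which encodes an RNA-binding protein that restrains viral translation, stood at 4.94, 5.05, 8.16 and 242 CPM in control naive, day 1, day 2 and day 3. Its log2 ratio was 4.88 (95% interval 4.63 to 5.16), or 29.5-fold, and in A20 cKO it stood at 169, 188, 226 and 305 CPM in the same order. Control day 3 alone was high among the controls, and it lay inside the range of the A20 cKO libraries. Slfn5 (chr11:82951349-82964840, plus strand), of the Schlafen family, was at 3.09, 3.06, 2.97 and 125 CPM in the controls and at 71.5, 91.5, 120 and 145 CPM in A20 cKO, with a control ratio of 5.38 (4.97 to 5.84). Rsad2 was at 4.94, 2.77, 3.1 and 106 CPM in the controls and at 62.1, 102, 112 and 106 CPM in A20 cKO, with a ratio of 5.08 (4.68 to 5.54). Ifit3 was at 41.4, 16.6, 19.4 and 363 CPM in the controls and between 258 and 466 CPM in A20 cKO, with a ratio of 4.22 (4.05 to 4.40). These 4 genes share the pattern of 3 low controls, 1 high control and 4 high A20 cKO libraries. Iigp1, an interferon-inducible GTPase, had the largest ratio of the list at 7.54 (6.20 to 10.04), from 3 UMIs on day 2 and 299 on day 3.

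Other members of high ratio were Ifit1 at 4.01 (3.71 to 4.33), Oasl2 at 3.96 (3.76 to 4.16), Mx1 at 4.29 (3.95 to 4.68) and Isg15 at 3.10 (2.95 to 3.26), the last going from 27.5 to 236 CPM. Samd9l, a restriction factor, was at 3.56 (3.32 to 3.83) and went from 9.61 to 114 CPM. Several genes among the highest ratios have close copies among which the authors' counting could divide reads, so their single values are uncertain. These were Ifit3b at 4.50 beside Ifit3, and the neighbouring Pydc4 at 5.30, Pydc3 at 5.23, AI607873 at 4.55, Pyhin1 at 3.72 and Ifi204 at 3.59, which belong to the family of interferon-inducible DNA sensors. All had day 3 levels above every other control library. The 5 remaining list members had too few UMIs to be considered, and each had more UMIs in the shallower day 3 library: Ifit1bl1 with 0 UMIs on day 2 and 46 on day 3, Ifi203 with 0 and 18, Oas1g with 2 and 34, Oas3 with 3 and 31, and Ifi44 with 3 and 25.

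Transcription factors of the pathway had smaller ratios than the 4 effectors above. Irf7, which amplifies interferon production, was at 26.5, 15.9, 21.4 and 171 CPM in the controls, a ratio of 3.00 (2.83 to 3.18). Stat2, a subunit of the interferon-activated complex, was at 27.1, 10.9, 16.3 and 114 CPM, a ratio of 2.81 (2.61 to 3.02). Irf9, its DNA-binding partner, was at 109, 72.5, 83.8 and 138 CPM, a ratio of 0.71 (0.59 to 0.83). Day 3 was the highest control for each of the 3, and for Irf9 it was less than 2-fold above day 2. The other 5 members short of 2-fold included Bst2 at 0.88, Lgals3bp at 0.46, Ifi35 at 0.40 and Lgals9 at 0.36. Transcripts of the ligand itself were close to the counting floor, Ifnb1 having 0 UMIs on day 2 and 3 on day 3.

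The excess on day 3 was found in most cells and was unevenly spread among them. After each cell was thinned to 2000 UMIs, so that depth was equal, a day 2 cell held a median of 4 UMIs of the list (quartiles 3 and 6) and a day 3 cell 11 (quartiles 7 and 22). Medians were 4 and 3 in control naive and day 1, and 9, 11, 25 and 28 in the A20 cKO libraries. At least 10 UMIs were found in 5.52% of day 2 cells and 58.9% of day 3 cells, and in 49.1%, 56.1%, 97.6% and 97.6% of A20 cKO cells in naive, day 1, day 2 and day 3. The distribution on day 3 was wide, with the lowest 10% of cells at or below 5 UMIs and the highest 10% at or above 42, where the day 2 values were 2 and 8. Nearly every cell had at least 1 UMI of the list in both libraries (98.6% and 99.9%, unthinned 99.8% in both), so that share did not separate the days. The highest 10% of cells held 34.4% of the list's UMIs on day 3 and 23.3% on day 2. Thinning left out 239 shallower cells of day 3 and 105 of day 2.

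**Figure D2:**
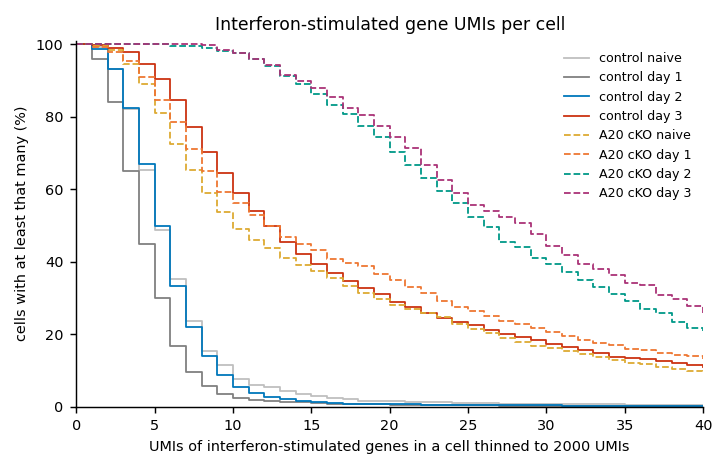
Share of cells in percent (y axis) with at least a given number of interferon-stimulated gene UMIs (x axis) after thinning to 2000 UMIs per cell, 1 line per library. At 10 UMIs the day 2 line is at 5.52% and the day 3 line at 58.9%, between A20 cKO day 1 at 56.1% and day 2 at 97.6%.

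On the same days in A20 cKO the list showed no such step. The median log2 ratio of A20 cKO day 3 over day 2 was 0.10, with 0 of 60 members past 2-fold in either direction, where 0.427% of all genes were at least 2-fold higher (29 of 6793) and 0.412% lower. A20 cKO over control gave a median of 1.91 in naive mice, with 49 of 60 members at least 2-fold higher where 7.43% of all genes were higher and 2.22% lower. On day 1 the median was 2.99, with 51 of 57 members at least 2-fold higher where 15.5% of all genes were higher and 3.25% lower. Genotype and library side cannot be told apart on day 1, and in naive mice the side of the control library is unclear.

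Genes at least 2-fold higher on control day 3 were also looked up in the 3 other pairs. Of 1298 such genes, 1170 had a day 3 level above all 3 other control libraries (90.1%, against 37.5% of all genes considered, with day 2, which chose the genes, among the 3), and in 884 every A20 cKO library was above those 3 controls as well (68.1%, against 21.3% of all genes considered). In 753 of the 1298 (58%) the day 3 level lay within the range of the A20 cKO libraries, below the 63.7% of all genes considered. Of 1113 also considered on day 1, 780 (70.1%) were at least 2-fold higher in A20 cKO, which is 55.4% of the 1407 genes higher in that pair, where 15.5% of all genes were. Of 1168 considered in naive mice, 365 (31.2%) were higher in A20 cKO, 59% of the 619 in that list, against 7.19% of all genes. Of 933 considered in A20 cKO day 3 over day 2, 6 (0.643%) were higher, 22.2% of the 27 in that list, against 0.399% of all genes. Genes at least 2-fold lower on control day 3 were lower in A20 cKO in 28 of 202 (13.9%) on day 1 and 18 of 147 (12.2%) in naive mice, and in 5 of 109 (4.59%) they were lower in A20 cKO day 3 over day 2. These shares stand against 2.87%, 2.22% and 0.399% of all genes, and the recurring genes were 10.7%, 9.42% and 18.5% of the other lists. None of these 3 pairs shares a library with the control pair.

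Antigen presentation and nucleic acid sensing had single members with large ratios. In the MHC class I list 19 of 22 members were above 0, with a median of 0.44. At least 2-fold higher were 5, against 13.1% of all genes, and none was lower. Nlrc5, the transactivator of class I genes, was at 3.7, 2.77, 2.28 and 13.9 CPM in the controls, a ratio of 2.59 (2.04 to 3.20). The peptide transporter Tap1 was at 43.2, 44.1, 46 and 110 CPM, a ratio of 1.26 (1.11 to 1.41). Erap1, which trims peptides, had a ratio of 1.35 (1.11 to 1.59), and the non-classical H2-T22 had 1.12 (0.92 to 1.31). The abundant classical genes differed less, with H2-K1 at 0.31, H2-D1 at 0.23 and B2m at 0.15. For H2-K1 and H2-D1, control day 3 at 384 and 1045 CPM lay below the lowest A20 cKO library, at 1026 and 3166 CPM. For these 3 genes control day 3 lay within the range of the other controls, unlike the members of the interferon list. MHC class II had a median of -0.25 over 9 members, with H2-Aa and H2-Eb1 at 1.42 each on 46 to 68 UMIs, and 3.36% of thinned cells with 5 or more UMIs of the list on day 3 against 8.74% on day 2. On day 2 and day 3, 1 cell held 45.7% and 17.5% of H2-Aa UMIs, and 29.1% and 19.1% for H2-Eb1. H2-Aa was higher in control naive, at 9.26 CPM, than on day 3, at 7.82 CPM.

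Among Toll-like receptors and adaptors, 3 of 14 were at least 2-fold higher, against 13.1% of all genes, with a list median of 0.26. Tlr3, the receptor for double-stranded RNA, was at 78.4, 44, 51.8 and 207 CPM in the controls and between 179 and 228 CPM in A20 cKO, a ratio of 2.00 (1.87 to 2.12). Tlr7, for single-stranded RNA, was at 90.7, 62.9, 50.6 and 169 CPM in the controls and between 122 and 173 CPM in A20 cKO, a ratio of 1.74 (1.61 to 1.87). Traf6, the adaptor ubiquitin ligase, was at 1.20 (0.83 to 1.56). Both endosomal RNA receptors thus had the pattern of 1 high control and 4 high A20 cKO libraries.

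Chemokine UMIs were less evenly spread over cells on day 3 than on day 2. Cxcl10, an interferon-inducible attractant of T cells, was at 3.09, 10.9, 14.4 and 153 CPM in the controls, a ratio of 3.41 (3.20 to 3.62), and stayed below the 253 to 494 CPM of A20 cKO. Ccl2, which attracts monocytes, was at 7.41, 502, 88.6 and 263 CPM, a ratio of 1.57 (1.47 to 1.67), so that the highest control was day 1. Ccl12 was at 294, 3406, 1088 and 1991 CPM, a ratio of 0.87 (0.84 to 0.90), also with its highest control level on day 1. The median over 10 members was 0.31, with Ccl3, Ccl4 and Ccl5 at 0.19, 0.26 and 0.36. The highest 10% of thinned cells held 54.3% of chemokine UMIs on day 3 and 31.6% on day 2, while the share of cells with 10 or more was 13.6% and 4.02%.

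Genes of the NF-kB pathway differed little as a group, at a median of -0.04 over 22 members. At least 2-fold higher were 3, near the 13.1% of all genes, and none was lower. Tnfaip3 (chr10:19000910-19015657, minus strand), the gene of A20, was at 24.1, 25.2, 6.83 and 20.3 CPM in the controls, a ratio of 1.57 (1.21 to 1.94), or 0.99 and so short of 2-fold relative to genes of like transcript length. In this gene day 2 was the low library and day 3 lay below naive and day 1. The 4 libraries labelled A20 cKO all stood above every control, at 42.3 to 67.7 CPM. Birc2, an inhibitor of apoptosis, had a ratio of 1.39 (1.13 to 1.64), and Bcl2a1d 1.11 (0.92 to 1.30), the latter one of several near-identical copies and so uncertain. Nfkbia, the inhibitor that NF-kB induces, was at 205, 523, 193 and 374 CPM, a ratio of 0.95 (0.88 to 1.03). Myc, a transcription factor of growth and division, was at 31.5, 96.5, 43.4 and 46.4 CPM, and its ratio of 0.10 (-0.10 to 0.29) was not distinguishable from 0 at this depth.

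Immediate-early genes, which respond to stimulation within minutes, were above 0 in 21 of 22, with a median of 0.61. At least 2-fold higher were 5, against 13.1% of all genes, and none was lower. Fosb was at 3.7, 554, 24.4 and 120 CPM in the controls, a ratio of 2.30 (2.12 to 2.47), and at 110, 1.65, 5.93 and 88.1 CPM in A20 cKO, a ratio of 3.86. Dusp1, a MAP kinase phosphatase, was at 24.1, 1948, 50.1 and 132 CPM in the controls, a ratio of 1.40 (1.26 to 1.53), and of 2.39 in A20 cKO. Klf4 had 2.07 (1.84 to 2.30) and Rgs1 1.87 (1.76 to 1.98). Control day 1, not day 3, was the highest control for each of these 4 genes. Fos was at 0.70 (0.62 to 0.78), Egr1 at 0.77 (0.61 to 0.93) and Jun at 0.60 (0.55 to 0.64), where A20 cKO day 3 over day 2 gave 4.57, 4.76 and 2.44. This list was higher on day 3 in both genotypes, with an A20 cKO median of 1.38. There 15 of 20 members were at least 2-fold higher, against 0.427% of all genes. Its summed level was 3402, 32255, 4034 and 6179 CPM in the controls and 9104, 3041, 2715 and 7086 CPM in A20 cKO, with A20 cKO day 1 and day 2 below control day 2. A thinned cell held a median of 7 UMIs of the list on day 2 and 10 on day 3.

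Genes of DNA replication were lower on day 3. Of 51 list members 23 were at least 2-fold lower and none higher, 47 were below 0, and the median was -0.79, where 2.69% of all genes were lower. Asf1b, a histone chaperone of the replication fork, was at 4.32, 7.54, 67.8 and 16.7 CPM in the controls and 15.4, 14.2, 39.5 and 17.7 CPM in A20 cKO, a control ratio of -2.01 (-2.30 to -1.75). Tk1, the thymidine kinase of S phase, was at 3.7, 2.92, 65.3 and 21.7 CPM in the controls, a ratio of -1.59 (-1.84 to -1.35). The clamp loader subunit Rfc4 had -1.68 (-1.98 to -1.41) and the uracil glycosylase Ung -1.58 (-1.95 to -1.25). Tyms, which makes thymidylate, was at 20.4, 24.1, 121 and 42.7 CPM, a ratio of -1.50 (-1.68 to -1.33). Day 2 was the highest control library for each of these 5 genes, and day 3 remained above day 1 for Asf1b, Tk1 and Tyms. The list summed to 734, 1120, 2268 and 1290 CPM in the controls and 1019, 1462, 1814 and 1413 CPM in A20 cKO. The A20 cKO median on the same days was -0.39, with 2 of 34 members at least 2-fold lower, against 0.412% of all genes.

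Over all cells, mitotic genes were lower on average and divided among themselves. Mitotic entry and exit genes had a median of -0.59 (8 of 32 at least 2-fold lower, none higher) and kinetochore genes -0.49 (6 of 35 lower, none higher). Spindle and cytokinesis genes lay at 0.06 with 4 of 27 higher and 1 lower, and at -0.09 relative to the median gene. Over all genes considered the shares were 13.1% higher and 2.69% lower. Cdk1 (chr10:69335146-69352938, minus strand), the kinase that drives mitosis, was at 4.32, 4.27, 46.1 and 23.1 CPM in the controls and 12.6, 13.5, 41.2 and 32.7 CPM in A20 cKO, a control ratio of -0.996 (-1.25 to -0.76). Ccnb1, its cyclin partner, was at 0.617, 1.56, 33 and 14.3 CPM, a ratio of -1.20 (-1.53 to -0.90). Aurka, a centrosome kinase, had -1.41 (-1.83 to -1.02), the inhibitory kinase Pkmyt1 -1.57 (-1.88 to -1.27), and the kinetochore subunit Cenph -2.12 (-2.71 to -1.61). All were high on day 2 and day 3 against naive and day 1, and lower on day 3 than on day 2.

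Mki67 went the other way in its summed level, but not in the share of cells that held it. At full depth its UMIs were found in 857 cells of the control day 2 library (23.9%) and 345 of the day 3 library (16.3%). The most UMIs in 1 cell were 13 and 25 in the same order. Day 3 cells were shallower, and this share was not compared at equal depth. This gene (chr7:135689784-135716361, minus strand) encodes Ki-67, which coats mitotic chromosomes and is a common marker of dividing cells, and it stood at 2.47, 1.64, 92.2 and 154 CPM in the controls, a ratio of 0.74 (0.62 to 0.85). In A20 cKO it was at 51.1, 64.7, 269 and 125 CPM, a ratio of -1.10 (-1.30 to -0.92). Aspm, a spindle pole protein, was at 0, 0.64, 8.41 and 19.2 CPM in the controls, a ratio of 1.19 (0.84 to 1.55), and of -0.94 in A20 cKO. Ckap5, a microtubule polymerase, had 1.30 (1.11 to 1.50) and the kinesin Kif14 1.04 (0.49 to 1.59). Cenpe was at 0.80 and Cenpf at 0.12, where Birc5 was at -0.98, Ube2c at -0.92 and Top2a at -0.40. The members above 0 thus included several with long transcripts, such as Mki67 with 10060 bases.

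Transcript length moved with the ratio over all genes. Sorted by the longest annotated transcript into 5 groups of 20% each, genes had median log2 ratios of -0.285, -0.0971, 0.128, 0.398 and 0.685 from short to long. In the shortest group (up to 1918 bases) 6.38% of genes were at least 2-fold higher and 6.23% lower, and in the longest (5177 bases or more) 29.9% higher and 0.708% lower. The same medians ran from -0.164 to 0.332 in A20 cKO over control naive and from -0.172 to 0.764 on day 1, the latter across the split. In A20 cKO day 3 over day 2 they were -0.0783, -0.0324, -0.0303, -0.0167 and -0.0405, with no comparable slope. Over 181 genes of the 6 lists on replication, mitosis, kinetochore, spindle, chromosome structure and tubulins, all read from the same libraries, the Spearman correlation of length with the ratio was 0.415. The shorter 90 of them had a median of -0.699 with 11 above 0, and the longer 91 a median of -0.361 with 30 above 0. In A20 cKO the correlation over 120 genes was -0.291. Relative to the 10% bin of genes of like transcript length, Mki67 was at -0.04 in place of 0.74, the spindle list at -0.13 and the DNA replication list at -0.99. Of 97 named genes past 2-fold, 19 were short of it on this scale. Among them were Tnfaip3 at 0.99, Tap1 at 0.95, Erap1 at 0.77, Ckap5 at 0.72, Traf6 at 0.62, Mef2a at 0.57, Itgam at 0.53, Aspm at 0.41, Kif14 at 0.26 and Mrpl12 at -0.96.

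**Figure D3:**
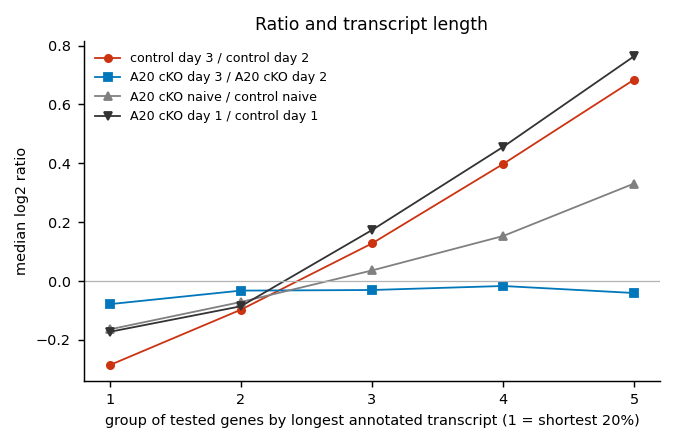
Median log2 ratio (no units) of all genes considered against 5 equal groups of genes by longest transcript length, for the control pair and the 3 other pairs. The control pair goes from -0.285 in the shortest group to 0.685 in the longest, whereas A20 cKO day 3 over day 2 stays between -0.0783 and -0.0167.

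Of 120 cell-cycle genes with enough UMIs in both genotypes, 84 were below 0 from day 2 to day 3 in both. Another 29 were above 0 in control and below 0 in A20 cKO, 6 the reverse, and 1 above 0 in both. Most cell-cycle genes therefore had the same sign in both genotypes, and those with opposite signs were mostly above 0 in the control pair alone.

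**Figure D4:**
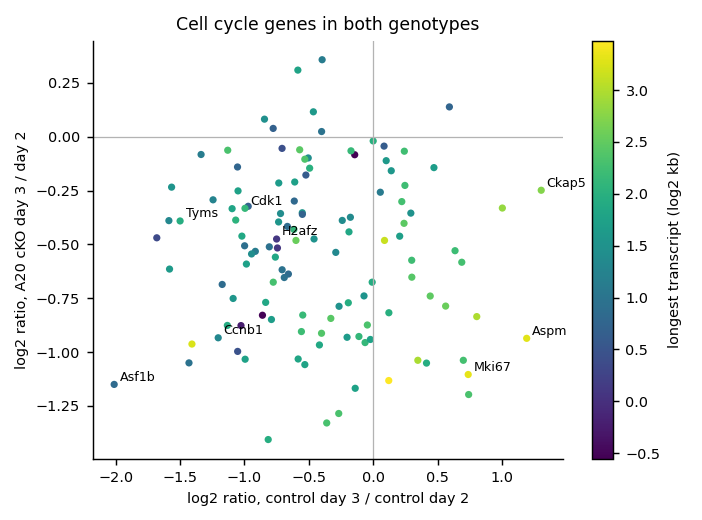
Log2 ratio of day 3 over day 2 in control (x axis) and A20 cKO (y axis), each point 1 cell-cycle gene, with colour for longest transcript length in log2 kb. Of 120 genes 84 lie below 0 on both axes, and Mki67 lies at 0.74 in control and -1.10 in A20 cKO.

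The share of cells in cycle was lower on day 3. Cells thinned to 2000 UMIs were placed in a G2/M class if 3 or more of 18 core G2/M genes had a UMI, and otherwise in an S class if 3 or more of 12 core S genes did. The S class held 218 of 3480 day 2 cells (6.26%, Clopper-Pearson 5.48 to 7.12) and 53 of 1878 day 3 cells (2.82%, 2.12 to 3.68). The difference was -3.44 percentage points (Newcombe interval -4.52 to -2.30). The G2/M class held 494 day 2 cells (14.2%, 13.1 to 15.4) and 159 day 3 cells (8.47%, 7.25 to 9.82), a difference of -5.73 points (-7.41 to -3.98). In A20 cKO the G2/M share went from 12.5% to 7.44%, a difference of -5.03 points (-8.44 to -1.56), and the S share from 3.67% to 3.16%, a difference of -0.514 points (-2.65 to 1.69). At full depth the S class held 11.1% of day 2 and 5.43% of day 3 control cells, and the G2/M class 32.4% and 11.01%. A class cut from a count of genes is a range and not a cell type, with 514 day 2 cells and 77 day 3 cells 1 gene short of G2/M. Whether RNA free in the suspension added to the classes or to these near-misses was not tested.

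After thinning, cells with no UMI of any core gene made up 17.9% of day 2 (622) and 47.9% of day 3 (900). Genes were compared, on thinned UMIs, within these cells and within the G2/M class. In cells with no core gene 12.9% of all genes were at least 2-fold higher and 1.9% lower, and within the G2/M class 8.1% were higher and 2.57% lower. Interferon-stimulated genes had a median of 2.08 in cells with no core gene (36 of 45 at least 2-fold higher) and 2.17 in the G2/M class (15 of 20). Ifit2 was at 5.08 and 5.34, so the excess was found in both kinds of cell. Mitotic lists, with core genes left out, were above 0 within the G2/M class, unlike over all cells. Their medians were 0.51 for mitotic entry and exit (7 members), 0.67 for kinetochore (8) and 1.025 for spindle genes (5). Chromosome structure genes were at 0.70 (19) and DNA replication genes at -0.27 (11), where all genes had a median of 0.0008. These lists had few members with enough UMIs. Stmn1, a microtubule-destabilizing protein of dividing cells, was at -1.28 in cells with no core gene and 0.36 in the G2/M class, and at -0.74 (-0.81 to -0.68) over all cells. Tgfb1 was at -2.12 and -1.68, Tnfaip3 at 2.53 in both and Abca1 at 2.1 and 2.04. Tnfaip3 rested on 37 day 3 and 4 day 2 UMIs in cells with no core gene (1.20 to 4.63). In the G2/M class it had 6 and 3 UMIs (0.41 to 5.26), and Abca1 had 20 and 15. These 3 genes thus kept their direction in both kinds of cell, where Stmn1 did not. Dusp1 and Axl were at 1.39 and 1.22 in cells with no core gene. In the G2/M class they were at 0.30 (-0.36 to 0.90) and 0.47 (-0.80 to 1.56). The chemokine list had a median of 0.90 in cells with no core gene, with 4 of 8 members at least 2-fold higher. In the G2/M class its median was -0.64, with 2 of 7 higher, and none was lower in either. A different set, cells with no core gene UMI at full depth, was also compared without thinning. In that set 11 of the 97 named genes past 2-fold were short of it. Among them were Tap1 at 0.93, Birc2 at 0.58, H2-T22 at 0.53, Spp1 at 0.24, Kif14 at 0.18 and Odc1 at -0.64. Spp1 was at 0.83 in the thinned cells with no core gene and at -0.80 (-4.3 to 1.1) in the G2/M class.

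Histone genes differed from the other S phase genes. Replication-dependent histones with enough UMIs, 24 of 68 on the list, had a median of 0.59. At least 2-fold higher were 10 and lower 1, against 13.1% and 2.69% of all genes. The filter counts both libraries together, so a gene can pass it through the library where it is high. Hist1h2an, for example, had 61 UMIs on day 2 and 242 on day 3. With a minimum of 20 UMIs, 51 members had a median of 0.32. Hist1h1e (chr13:23620629-23622558, minus strand), a linker histone, was at 40.7, 70.5, 49.3 and 286 CPM in the controls and at 243, 106, 238 and 224 CPM in A20 cKO, a control ratio of 2.53 (2.42 to 2.65). Hist1h2an was at 0, 0.569, 3.86 and 33.2 CPM in the controls, a ratio of 3.10 (2.70 to 3.54), and at 19.2, 18.2, 54.7 and 34.6 CPM in A20 cKO. Hist2h2ac had 2.05 (1.80 to 2.31) and Hist1h2ab 2.12 (1.62 to 2.66). Control day 3 was the highest control for these 4 genes, within the A20 cKO range for all but Hist1h1e, which exceeded it. Most of these transcripts lack a poly(A) tail, on which the library chemistry primes, and family members share sequence, so single values are uncertain. Within the G2/M class Hist1h1e was at 3.42, and in cells with no core gene at 2.29.

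Regulators of entry into the cycle were spread in both directions, with a median of -0.35. Of 24, 5 were at least 2-fold higher and 4 lower, against 13.1% and 2.69% of all genes. The lower ones were Ccne1 at -1.77 (-2.15 to -1.43), E2f1 at -1.59 (-1.89 to -1.31), E2f7 at -1.29 and Ccne2 at -1.27, which promote or accompany S phase. The higher ones were Cdkn1b at 1.65 (1.47 to 1.83), Rbl2 at 1.54 (1.26 to 1.83), Ccnd3 at 1.34, Rb1 at 1.21 and E2f3 at 1.08. Cdkn1b, an inhibitor of cyclin-dependent kinases, was at 37, 27.5, 27.1 and 85.1 CPM in the controls and between 62.7 and 102 CPM in A20 cKO. Rbl2, a pocket protein of quiescent cells, was at 17.3, 8.11, 11.4 and 33.4 CPM in the controls and between 26 and 42.6 CPM in A20 cKO. On the same days in A20 cKO they had ratios of 0.04 and 0.12.

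**Figure D5:**
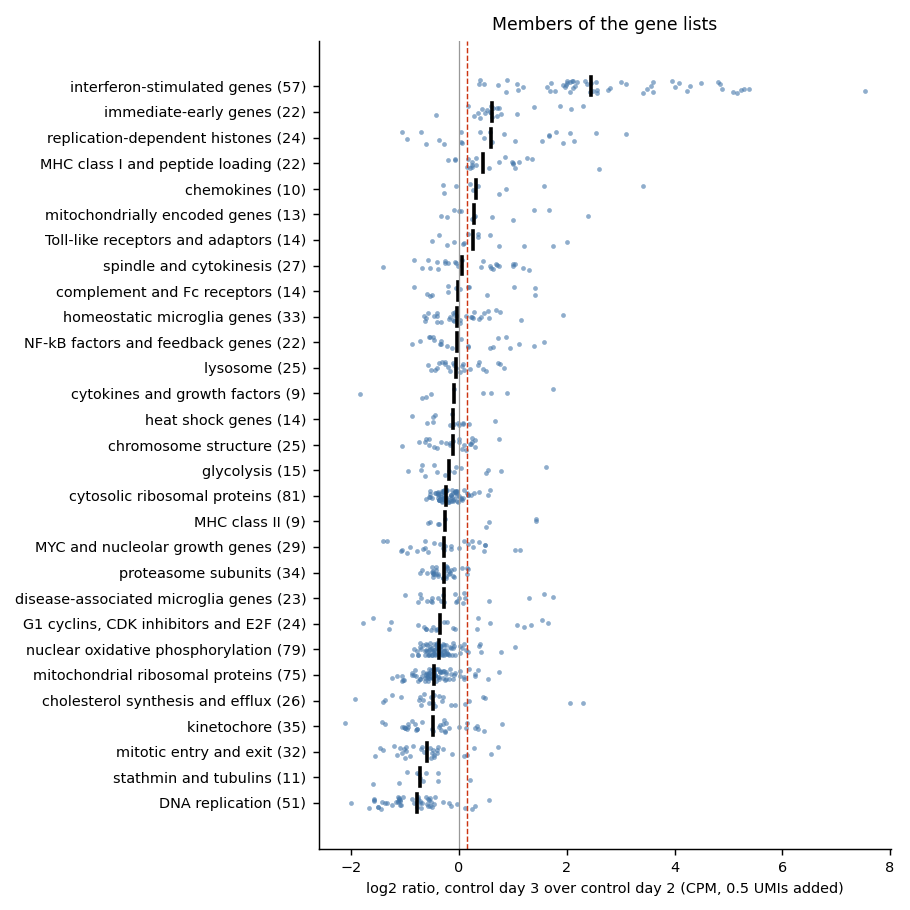
Log2 ratio of control day 3 over day 2 for the members of each gene list with enough UMIs (points, number in brackets), with black bars at list medians and a dashed line at the median of all genes considered. The interferon-stimulated list has its median at 2.45 and all 57 members above 0, and the DNA replication list has its median at -0.79.

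Genes of microglial identity were close to level between the days. Over 33 homeostatic genes the median was -0.04, 2 were at least 2-fold higher, against 13.1% of all genes, and none was lower. P2ry12, the purine receptor that guides microglial processes, was at 4026, 2680, 2463 and 2191 CPM in the controls, a ratio of -0.17 (-0.20 to -0.14). Tmem119 had -0.61 (-0.64 to -0.58), Cx3cr1 -0.09 (-0.12 to -0.06) and the transcription factor Sall1 0.37 (0.24 to 0.49). The 8 microglia markers fixed to check the label lay between -0.61 and 0.37, none of them past 2-fold. The transcription factor Mef2a was at 568, 376, 361 and 800 CPM, a ratio of 1.15 (1.09 to 1.20), and the sulfotransferase Gal3st4 at 104, 23.8, 18.1 and 69.3 CPM, a ratio of 1.93 (1.72 to 2.15). Disease-associated microglia genes had a median of -0.28 (3 of 23 at least 2-fold higher, near the 13.1% of all genes, and none lower). The receptor tyrosine kinase Axl was at 25.3, 9.39, 17.6 and 52.7 CPM in the controls, a ratio of 1.58 (1.35 to 1.81), and between 151 and 332 CPM in A20 cKO. Csf1, a ligand of the microglial survival receptor, was at 14.8, 12.9, 11.6 and 39.1 CPM, a ratio of 1.75 (1.48 to 2.02), and its A20 cKO ratio was 0.68. Spp1 at 1.29 had 38% of its day 3 UMIs in 1 cell. Trem2 was at -0.76 (-0.79 to -0.73), Tyrobp at -0.70 and Apoe at -0.60, all short of 2-fold.

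Complement and Fc receptor genes had a median of -0.02 over 14 members, 3 of them at least 2-fold higher, against 13.1% of all genes. Itgam, a subunit of complement receptor 3, was at 376, 314, 337 and 683 CPM in the controls, a ratio of 1.02 (0.96 to 1.07). C5ar1, the receptor for C5a, was at 188, 429, 260 and 145 CPM, a ratio of -0.84 (-0.94 to -0.74), and C1qa was at -0.60. For Itgam control day 3 exceeded all other 7 libraries. The gene annotation of the counts holds 2 entries with this symbol, and the values are those of the first alone.

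Cholesterol genes divided by function. Of 26, 5 were at least 2-fold lower and 2 higher, against 2.69% and 13.1% of all genes, with a median of -0.48. The higher ones were the efflux transporters. Abca1 (chr4:53030787-53159895, minus strand) was at 51.8, 23.3, 18.8 and 93.5 CPM in the controls and between 65 and 98.1 CPM in A20 cKO, a control ratio of 2.31 (2.11 to 2.51). Abcg1 was at 35.8, 5.83, 7.71 and 32.4 CPM, a ratio of 2.07 (1.75 to 2.40), with control naive as the highest control. The lower ones were synthesis enzymes, Fdft1 at -1.94 (-2.59 to -1.38), Sqle at -1.41 (-1.84 to -1.01), Acat2 at -1.38, Fdps at -1.25 and Mvd at -1.08. Fdft1 was at 14.4 CPM on day 2 and 3.71 CPM on day 3, Sqle at 21.2 and 7.96 CPM. Hmgcs1, an early enzyme of the pathway, was at 0.18 (-0.09 to 0.44), so synthesis genes did not move as 1 group.

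Genes of the energy and protein-making machinery had small, mostly negative ratios. The medians were -0.38 for nuclear oxidative phosphorylation (68 of 79 below 0), -0.25 for cytosolic ribosomal proteins (68 of 81 below 0), -0.47 for mitochondrial ribosomal proteins (65 of 75), -0.28 for the proteasome (30 of 34) and -0.20 for glycolysis (10 of 15). Relative to genes of like length these became -0.13 for oxidative phosphorylation and 0.003 for cytosolic ribosomal proteins, both sets of short transcripts. Mrpl12 was at 82.7, 140, 143 and 60.2 CPM in the controls, a ratio of -1.25 (-1.40 to -1.10), the lowest of the mitochondrial ribosomal list. Pfkfb3, which raises glycolytic flux, was at 75.9, 65.9, 37.8 and 115 CPM, a ratio of 1.61 (1.45 to 1.76). Among 29 MYC and nucleolar growth genes the median was -0.28, with Srm, a polyamine enzyme, at -1.41 (-1.61 to -1.23) and Odc1 at -1.34 (-1.62 to -1.07). Heat shock genes had a median of -0.11 and lysosome genes -0.06. No member of either was past 2-fold, against 13.1% of all genes higher and 2.69% lower. Cytokines and growth factors had -0.10 over 9 members and chromosome structure genes -0.11 over 25. Stathmin and tubulin genes had -0.72 over 11, with Tubg1 at -1.60 (-1.91 to -1.32).

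Mitochondrially encoded genes were uneven, with a median of 0.27 over 13 and 4 at least 2-fold higher, against 13.1% of all genes. mt-Atp8 was at 314, 93.1, 105 and 549 CPM in the controls, a ratio of 2.38 (2.30 to 2.47), mt-Nd5 at 168, 154, 200 and 640 CPM, a ratio of 1.68 (1.61 to 1.74), and mt-Nd6 had 1.39 (1.07 to 1.72). mt-Nd4l reached 1.00. All 4 were lower on day 3 in A20 cKO, at -0.42, -0.44, -0.53 and -0.42. mt-Atp8 and mt-Nd4l overlap their neighbours on 1 transcript, so reads could be assigned to either gene.

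The lowest ratios outside the cell-cycle lists belonged to a mixed set of genes. Exosc2 (chr2:31670715-31681349, plus strand), an RNA exosome subunit, was at 123, 66.2, 109 and 11.4 CPM in the controls and at 11.4, 24.8, 14.2 and 15.7 CPM in A20 cKO, a control ratio of -3.25 (-3.60 to -2.94) and 9.54-fold lower. Day 3 was the 1 low control and stood at the level of the A20 cKO libraries. Tgfb1 (chr7:25687002-25705077, plus strand), the cytokine that maintains microglial identity, was at 555, 435, 510 and 142 CPM in the controls and at 246, 240, 170 and 218 CPM in A20 cKO, a control ratio of -1.85 (-1.94 to -1.76). Control day 3 was below all other 7 libraries for this gene, and A20 cKO day 3 over day 2 was 0.36 (0.18 to 0.53). Gpr84, a fatty acid receptor of activated microglia, was at 199, 550, 345 and 120 CPM in the controls, a ratio of -1.53 (-1.63 to -1.43), also below all other libraries. Slc16a3, a lactate exporter, had -1.42 (-1.65 to -1.21), and 0.56 (0.20 to 0.92) in A20 cKO. Others were Nxt1 at -1.45, Elovl1 at -1.32, Siva1 at -1.31, Lsm2 at -1.28 and Tmem109 at -1.26. Of all 266 genes at least 2-fold lower, 153 (57.5%) had a day 3 level below the 3 other control libraries, against 22.9% of all genes considered. Day 2 is among those 3 and chose the genes. In 188 of the 266 it lay within the range of the A20 cKO libraries, where 63.7% of all genes considered lay within that range.

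Markers of other cell types were low in both libraries, and several were more abundant on day 3. Neutrophil markers were at 0 for all 6 genes in control naive, day 1 and day 2, summed to 30.3 CPM on control day 3 and stood at 24.4 to 45.6 CPM in A20 cKO, with S100a8 going from 0 to 94 UMIs. Monocyte markers summed to 2.8 and 27.9 CPM, with Plac8 at 20 and 161 UMIs. The astrocyte marker Slc1a3 was at 102 and 252 CPM and the myelin gene Mbp at 15.6 and 80.3 CPM, a ratio of 2.37 (2.15 to 2.59). Other sums on day 2 and day 3 were 140 and 225 CPM for oligodendrocytes, 105 and 261 for astrocytes, 3.4 and 8.5 for neurons, 13.9 and 41.3 for endothelial cells and pericytes, 1.2 and 3.3 for perivascular macrophages, 0 and 2.7 for erythroid cells, and 1.2 and 1.6 for dendritic cells. T and NK cell markers went the other way, from 13.4 to 0.3 CPM, as Gzma had 147 UMIs on day 2 and 0 in every other library, and B cell markers went from 51.1 to 37.2 CPM. The cells were sorted for YFP, and the part of these genes in the ratios above was not tested.

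Ttr, the transthyretin gene of the choroid plexus, had the largest ratio in the pair. It had 0 UMIs in control naive, day 1 and day 2 and 1597 UMIs on day 3, which makes it at least 1156-fold higher against a floor of 3 UMIs. On day 3 it was found in 74 cells, with 1265 UMIs under 1 barcode, and that barcode was also the top Ttr barcode in all 4 A20 cKO libraries. Under barcodes found in 1 library alone, 179 Ttr UMIs remained on day 3. Most of its level thus came from a barcode that libraries shared.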

How the data were processed

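Single-cell RNA was measured in 8 libraries of YFP-sorted lumbar microglia, 1 library per group of 3 pooled animals, with samples grouped by the labels' titles. The labels name a 3′ kit v3.1 and the study's methods v3. Per the submitters' processing notes, Cell Ranger 2.1.1 and mm10 were used. The values are raw counts of UMIs per gene and barcode as the authors deposited them, while the study's own cutoffs for cells were not given in the sources read. Doublets were excluded at the sort per the study's methods, and no doublet caller was run here.

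Barcodes with at least 1000 UMIs, 500 genes and at most 10% mitochondrial UMIs were kept, summed per library and scaled to CPM. Ratios had 0.5 UMIs added to each sum and were called at 2-fold for genes whose 2 sums together held 100 UMIs or more. Intervals were exact conditional (ratios), exact Poisson (CPM), Clopper-Pearson (shares) and Newcombe (differences of shares) at 95%, and cover counting error only. For shares of cells and UMIs per cell, each cell was thinned to 2000 UMIs. Gene IDs were matched to GENCODE M21 (GRCm38) for coordinates and longest transcripts, 27645 of 27998 (98.7%), and 6 symbols of the lists had no match. Promoters came from RefSeq (GRCm38.p6). The named genes were the 12 highest and 12 lowest ratios among genes at a mean of 50 CPM or more, leaving out ribosomal protein, mitochondrial, Xist, Y-linked and predicted genes, the 4 members of largest ratio in each of 29 pathway lists, and Tnfaip3, Myc, Mki67 and Cdk1. Other list members and markers were named after their values were seen, and some genes that the rule names are not reported here. The comparison and the lists were chosen with earlier results of these data known. Alternatives varied the cell filter, scaling, depth, minimum UMIs, added UMI, shared barcodes and class rule. The ratio and interval code was tested on simulated data. Python 3.11.15 with numpy 2.4.6, scipy 1.17.1, pandas 2.3.3 and matplotlib 3.10.9 was used.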

Additional observations from a re-analysis of the deposited data

Results flagged for a closer look

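In 8 of the 138 named genes the ratio of day 3 over day 2 lay at least 0.5 log2 units from 0 in control and in A20 cKO, with opposite signs and counting intervals that left out 0. The differences themselves were not tested, since each side of each ratio was 1 library. The control pair crossed the library split and the A20 cKO pair did not, so genotype and library side cannot be told apart. Values are log2 ratios, followed by control minus A20 cKO.

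Histones and mitotic genes made up most of them. The histones Hist1h2an (3.10 and -0.66, difference 3.75), Hist2h2ac (2.05 and -1.12, difference 3.17) and Hist1h2ab (2.12 and -0.83, difference 2.96) were above 0 in control and below 0 in A20 cKO. The mitotic genes Kif14 (1.04 and -1.46, difference 2.5), Aspm (1.19 and -0.94, difference 2.13) and Mki67 (0.74 and -1.10, difference 1.84) had the same pattern, Kif14 on few UMIs in A20 cKO. The reverse was found for the galectin Lgals3 (-0.995 and 1.32, difference -2.32) and the lactate exporter Slc16a3 (-1.42 and 0.56, difference -1.98). Relative to genes of like transcript length, the control value of Mki67 was -0.04.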

How the results depend on the processing

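No paired analysis was possible because each group was 1 library and the labels give no replicate numbers. For the same reason no library could be left out. The main counts were 1298 genes at least 2-fold higher and 266 lower. Cells with no UMI of a core S or G2/M gene at full depth gave 624 and 82. A minimum of 500 UMIs gave 629 and 136, and a minimum of 20 UMIs gave 414 lower. Centring on the median gene gave 955 and 425, and left 7 of 97 named genes short of 2-fold, among them Itgam, Kif14, H2-T22 and Bcl2a1d. An alternative chosen after seeing the data, taking each ratio relative to the 10% bin of genes of like transcript length, gave 630 and 342. The remaining 17 of 24 counts were within 1.5 times, and of 1518 values for named genes 1273 moved by less than their interval, 245 moved by more, and 0 of those past 2-fold changed sign. Of 348 list medians 306 stayed within the spread used.

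Of the list medians that moved, centring gave 0.30 for MHC class I, 0.16 for chemokines, 0.46 for immediate-early genes, -0.26 for heat shock genes, -0.18 for homeostatic genes, -0.43 for disease-associated genes, -0.17 for complement, -0.21 for lysosome, -0.34 for glycolysis, -0.52 for oxidative phosphorylation, -0.39 for cytosolic ribosomal proteins, -0.43 for proteasome and 0.12 for mitochondrially encoded genes. In cells with no core gene UMI at full depth, not the thinned class above, fewer members had enough UMIs. Medians there were 0.072 for histones (4 members), 1.16 for spindle genes (2), 0.34 for G1 regulators (10) and 2.00 for interferon-stimulated genes (46). They were -0.58 for cytokines (4), 0.22 for NF-kB genes (11), -0.26 for heat shock genes (11) and -0.36 for disease-associated genes (16). Lysosome genes were at 0.066 (21) and MYC and growth genes at -0.0004 (17). G1, NF-kB and lysosome genes thus changed sign. In the thinned class the medians were -0.14 for lysosome genes, with no sign change, and -0.23 for MYC and growth genes. Relative to like length they were -0.31 for chromosome structure, -0.45 for stathmin and tubulins, 2.14 for interferon-stimulated genes, 0.62 for MHC class I, 0.029 for MHC class II, 0.60 for chemokines, 0.18 for cytokines, -0.42 for heat shock genes, -0.092 for homeostatic genes, -0.22 for disease-associated genes, -0.13 for oxidative phosphorylation, 0.003 for cytosolic ribosomal proteins and 0.55 for mitochondrially encoded genes, so that class II, cytokine and ribosomal genes changed sign. Single alternatives gave 0.25 for MHC class I and -0.10 for complement after thinning, 0.14 for chemokines as a mean over cells, -0.57 for cytokines at 500 UMIs, -0.18 for disease-associated genes at 20 UMIs and 0.22 for mitochondrially encoded genes under the stricter cell filter. The causes were not tested.

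Shares of cells depended on depth and on the class rule, and day 3 stayed below day 2 in each. For the S class on day 3 and day 2 they were 5.43% and 11.1% without thinning, 1.18% and 2.12% at 1000 UMIs, 6.18% and 13.3% with 2 core genes, and 1.28% and 3.02% with 4. For G2/M they were 11.01% and 32.4%, 5.29% and 6.83%, 12.6% and 29.0%, and 6.82% and 8.76%. At the depth of these libraries, ratios whose counting interval includes 0, such as that of Myc, could not be told from 0.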
